A study of Homo sapiens with 12 samples.

Results

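The hypoxia-inducible genes described here are 10 named members: HIF1A, EPAS1, EGLN3, VEGFA, ADM, CA9, BNIP3, PDK1, NDRG1 and ANKRD37. They were chosen by symbol from the 58735 genes of the deposited expression table, and each matched 1 gene. The 12 RNA-seq libraries are labelled as cultures of 2 human neuroblastoma lines, grown from childhood tumours of sympathetic nerve precursors, in 4 groups of 3 libraries. The SK-N-SH control and the SK-N-SH knockdown carry the same line label. Their genotype labels are WT and TSPYL5 knockdown (shNC and shL5 in the sample titles). The second line has the same pair of groups but its name differs between labels, SK_N_BE2 in titles and SH-SY5Y elsewhere; it appears below as the second line. TSPYL5 encodes a nuclear protein related to nucleosome assembly factors, and sh in the titles is read as short hairpin RNA. The treatment label is None for every library, and the labels give no oxygen level, culture density or clone.

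Cells sense oxygen through hydroxylase enzymes of the EGLN family, which mark the alpha subunits of hypoxia-inducible factor (HIF) for VHL-dependent destruction while oxygen is present. When oxygen is low the alpha subunits HIF-1 alpha (HIF1A) and HIF-2 alpha (EPAS1) persist, pair with ARNT and bind a short DNA core in the hypoxia response elements of their targets. Those targets serve blood vessel growth, acid export, a switch away from mitochondrial pyruvate use and removal of mitochondria, and HIF-2 alpha is known in neuroblastoma and other tumours of the sympathetic lineage. Because HIF alpha is controlled mainly through protein stability, transcript levels of HIF1A and EPAS1 do not measure HIF activity.

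The labels have to be read with care. TSPYL5 stood at 12.9 ± 0.649 FPKM (reads scaled to gene length and to library depth; mean ± SD, n = 3 libraries here and below) in SK-N-SH control and at 17.7 ± 0.629 in the group labelled as its knockdown, higher in place of lower. Second line control had 24.7 ± 0.918 and second line knockdown 12.8 ± 0.474. The neuroblastoma oncogene MYCN stood at 1028 ± 49.0 FPKM in SK-N-SH knockdown and at 1040.4 ± 33.3 in second line control, against 0.0408 ± 0.0407 in SK-N-SH control and 0 reads in second line knockdown. Summed over 8 noradrenergic neuroblast markers the libraries of these MYCN-high groups ran from 1139 to 1333 FPKM, and those of the other groups from 66.2 to 96.0. Summed over 8 mesenchymal markers the order was the opposite, 225 to 244 against 807 to 972 FPKM. The mesenchymal marker TWIST1 was still at 126 FPKM in SK-N-SH knockdown and 134 in second line control, the highest of its list there. TH had 0 reads in both MYCN-low groups, while HAND2 was at 43.8 FPKM or more in every group. Endothelial markers, of interest because EPAS1 and ADM are also endothelial genes, summed to at most 0.755 FPKM over 5 genes in any library, and blood and epithelial markers to at most 1.30 and 0.952. All groups are therefore named by label only, and a difference by label is not shown to be a response to the hairpin. In bulk libraries fewer cells of a type and less RNA per cell cannot be told apart. Nothing in the labels states that replicates are separate cultures; p-values then reflect only variation among these libraries, possibly technical.

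All 10 members passed the minimum mean of 0.5 FPKM over the 12 libraries, but EGLN3 and CA9 did so through the groups in which they are high, since each had a mean under 0.5 FPKM in 2 groups. In SK-N-SH, 5 members were higher and 3 lower under the knockdown label, and 2 did not pass an adjusted p of 0.05 (limma with Benjamini-Hochberg adjustment over 15856 genes, used for every adjusted p here). Of all genes tested 79.8% passed, 40.7% higher and 39.0% lower, so 8 of 10 members is near the background. The second line had 4 members higher and 4 lower, again 8 of 10, where 80.0% of all genes passed, 39.9% higher and 40.2% lower. The median log2 fold of the members was 0.19 in SK-N-SH and 0.10 in the second line, beside 0.02 and -0.02 over all genes tested. Between the control groups 4 members were higher and 4 lower in SK-N-SH, with 79.6% of all genes called. The libraries of the compared groups did not overlap for 8 members in SK-N-SH (81.5% of all genes), 8 in the second line (81.4%) and 7 between controls (81.3%). The hypoxia-inducible genes did not form 1 block. Within each line EPAS1, CA9 and NDRG1 were called higher in the MYCN-low group, and EGLN3, ADM, PDK1 and ANKRD37 in the MYCN-high group. Of all genes tested 69.3% were called in both lines with opposite directions. These differences were not all larger than those of HIF1A, VEGFA and BNIP3, which changed by at most 1.56-fold within a line. In the second line PDK1 changed 1.19-fold and NDRG1 1.43-fold. Between controls ANKRD37 did not pass (adjusted p = 0.0512) and its libraries overlapped. Without second line control replicate 1 it passed as lower in SK-N-SH control (log2 fold -0.40, adjusted p = 0.00167).

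**Figure D1:**
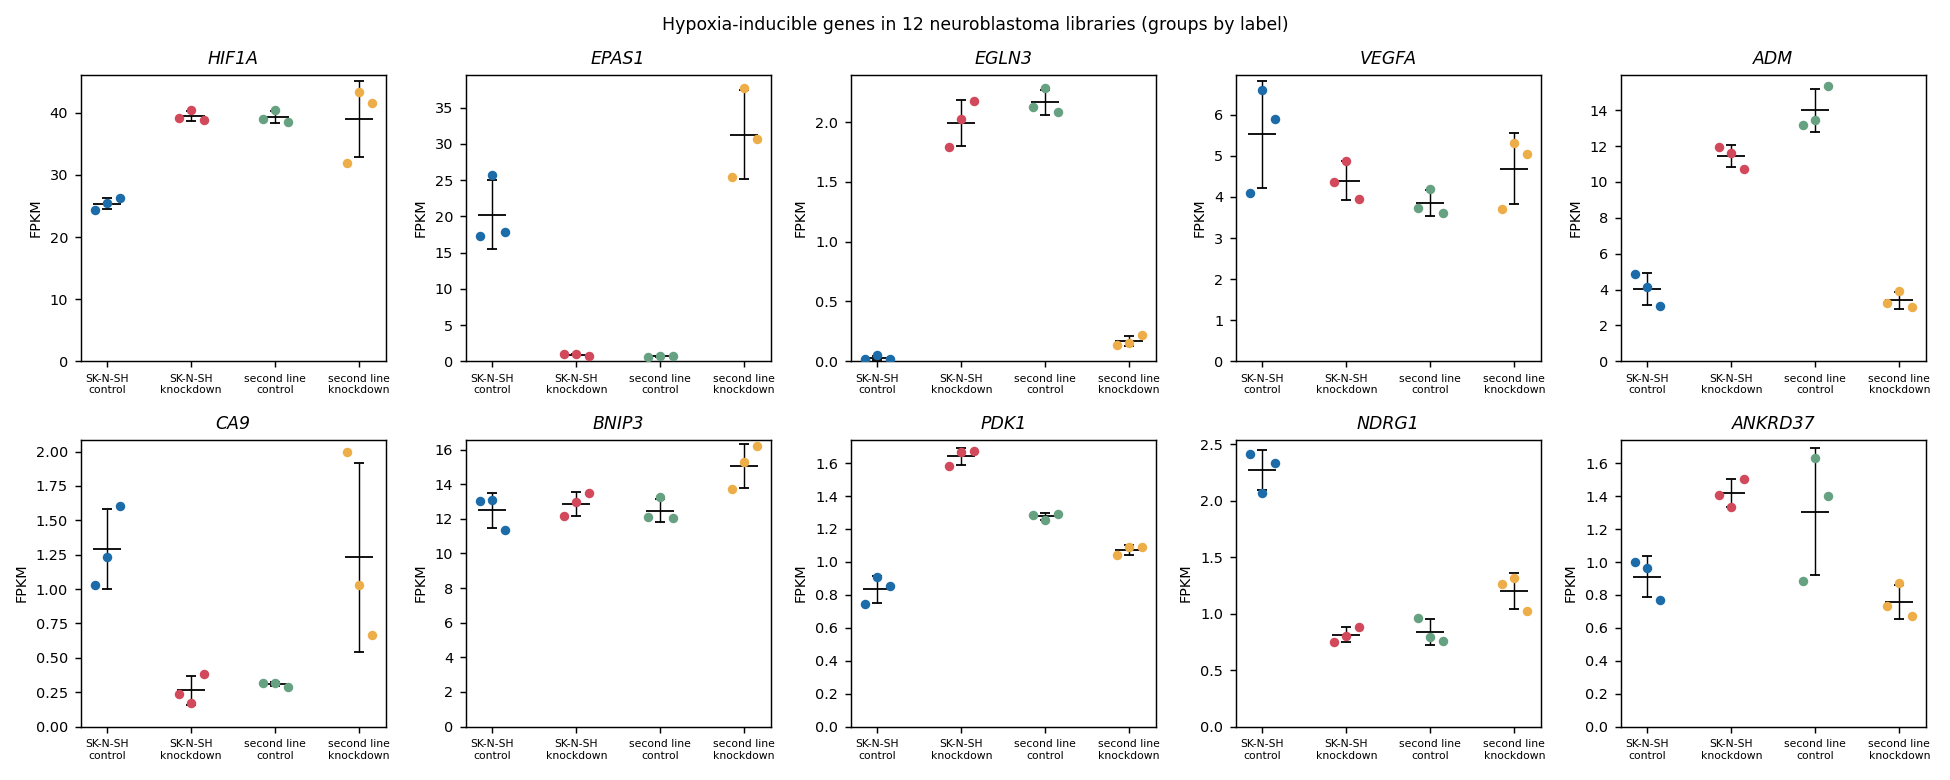
Level of each member in FPKM (y axis, from 0) in the 4 labelled groups (x axis); points are libraries, the bar is the mean and the whiskers are the SD of 3 libraries. EPAS1 is near 20 to 31 FPKM for SK-N-SH control and second line knockdown and at most 1.02 in the other libraries, and EGLN3 and ADM are high in those other libraries.

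The 250 bases before the transcription start were searched for the core that HIF binds, to show how far the members share it. A match was ACGTG or GCGTG on either strand, which reads CACGT or CACGC on the other; the MYC family's E-box CACGTG holds this core on both strands. RefSeq promoters (GRCh38.p14) were matched for 8 of the 10 members, in 10 windows, since HIF1A and PDK1 have 2 starts each; VEGFA and NDRG1 were not matched. Of these 10 windows 7 held the core, beside 43.2% of 35116 windows of the same length, and 2 held CACGTG (ANKRD37 and BNIP3), beside 6.34% of all windows. The members with the largest folds within a line (EPAS1, EGLN3, ADM and CA9), and ANKRD37 as one of the pair that carries both motifs, are shown 5′ to 3′, ending at the base before the start, with every match in capitals.
EPAS1 at chr2:46297157-46297406, plus strand: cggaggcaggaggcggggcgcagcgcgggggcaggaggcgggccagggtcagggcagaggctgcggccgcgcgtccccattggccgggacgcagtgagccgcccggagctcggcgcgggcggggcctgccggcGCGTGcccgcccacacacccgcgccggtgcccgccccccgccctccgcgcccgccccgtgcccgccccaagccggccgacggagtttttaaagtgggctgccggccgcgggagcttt
EGLN3 at chr14:33951075-33951324, minus strand: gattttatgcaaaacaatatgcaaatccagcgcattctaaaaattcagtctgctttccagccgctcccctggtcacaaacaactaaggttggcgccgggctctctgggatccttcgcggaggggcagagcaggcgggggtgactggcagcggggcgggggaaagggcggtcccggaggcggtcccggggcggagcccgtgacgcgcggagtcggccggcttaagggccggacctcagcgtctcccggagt
ADM at chr11:10304823-10305072, plus strand: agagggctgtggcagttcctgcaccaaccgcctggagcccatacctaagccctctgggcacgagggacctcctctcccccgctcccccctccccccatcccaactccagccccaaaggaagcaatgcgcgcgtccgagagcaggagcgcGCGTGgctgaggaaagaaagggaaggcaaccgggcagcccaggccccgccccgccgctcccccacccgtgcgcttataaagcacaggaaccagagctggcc
CA9 at chr9:35673678-35673927, plus strand: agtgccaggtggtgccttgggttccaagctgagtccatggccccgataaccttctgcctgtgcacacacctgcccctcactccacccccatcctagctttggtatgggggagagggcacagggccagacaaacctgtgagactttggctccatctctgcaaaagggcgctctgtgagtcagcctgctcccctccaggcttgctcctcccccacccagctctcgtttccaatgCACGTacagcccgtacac
ANKRD37 at chr4:185396591-185396840, plus strand: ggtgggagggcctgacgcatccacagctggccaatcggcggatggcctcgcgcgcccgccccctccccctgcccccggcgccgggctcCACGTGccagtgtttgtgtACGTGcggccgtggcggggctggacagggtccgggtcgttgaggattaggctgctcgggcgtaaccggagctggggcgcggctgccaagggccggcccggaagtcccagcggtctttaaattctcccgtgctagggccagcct
EPAS1 and ADM, which lay on opposite sides of every contrast within a line, each held 1 match, GCGTG in both, 117 and 101 bases before the start. The CA9 window held 1 match 18 bases before the start, read as CACGT on the strand shown. EGLN3 had no match in its window, which says only that these letters are not in these 250 bases. ANKRD37 held the E-box CACGTG and a further ACGTG. A match is a description of the letters, and no binding was measured.

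HIF1A (ENSG00000100644, chromosome 14, 61695513 to 61748259 on GRCh38, plus strand) encodes the broadly expressed alpha subunit. Its FPKM was 24.4, 25.4 and 26.2 in SK-N-SH control, 39.2, 40.4 and 38.8 in SK-N-SH knockdown, 39.0, 40.4 and 38.5 in second line control and 32.0, 43.4 and 41.6 in second line knockdown. SK-N-SH control was the only group set apart: its 3 libraries lay below the other 9, and the other 3 groups overlapped. The knockdown label came with a 1.56-fold higher level in SK-N-SH (log2 fold 0.62, SE 0.09, adjusted p = 5.59e-05) and with 38.99 against 39.3 FPKM in the second line (log2 fold -0.02, SE 0.09, adjusted p = 0.828). Without second line knockdown replicate 1, at 32.0 FPKM, that log2 fold was 0.11 with adjusted p = 0.0481, so both the sign and the call rest on this library.

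EPAS1 (ENSG00000116016, chromosome 2, 46293667 to 46386703, plus strand) encodes HIF-2 alpha. It was read at 17.2, 25.7 and 17.8 FPKM for SK-N-SH control and 25.4, 37.7 and 30.7 in second line knockdown. In SK-N-SH knockdown it stood at 1.02, 0.984 and 0.777 FPKM and in second line control at 0.641, 0.690 and 0.711, from 80 to 131 reads per library. The high and low groups were far apart, 21.9-fold lower in SK-N-SH knockdown (log2 fold -3.44, SE 0.15, adjusted p = 1.51e-09) and 46.0-fold higher in second line knockdown (log2 fold 4.25, SE 0.15, adjusted p = 2.19e-10), each relative to its labelled control. The FPKM unit is per length, so the alpha subunits can be set side by side: EPAS1 made up 44.0% ± 5.39 of the summed HIF1A and EPAS1 FPKM for SK-N-SH control and 44.4% ± 2.03 in second line knockdown, but 2.29% ± 0.293 in SK-N-SH knockdown and 1.70% ± 0.102 in second line control.

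EGLN3 (ENSG00000129521, chromosome 14, 33924231 to 34462774, minus strand) encodes PHD3, the oxygen-sensing prolyl hydroxylase that is itself a classic HIF target. Its FPKM was 1.79, 2.02 and 2.17 in SK-N-SH knockdown and 2.13, 2.28 and 2.08 in second line control. In second line knockdown it was 0.136, 0.153 and 0.220, and in SK-N-SH control 0.0146, 0.0503 and 0.0218, the latter from 2 to 7 reads per library. EGLN3 was thus high where EPAS1 was low. EGLN3 was 69.0-fold higher by mean FPKM in SK-N-SH knockdown than in control (adjusted p = 1.95e-09) and 12.8-fold lower in second line knockdown (adjusted p = 3.30e-09). Without SK-N-SH control replicate 2, which holds 7 of the 12 reads of its group, the former was 109.7-fold. On the scale of the model, log2(FPKM + 1), which understates changes of low genes, these were 1.54 (SE 0.07) and -1.44 (SE 0.07), beside 6.05 and -3.68 with voom on whole reads.

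**Figure D2:**
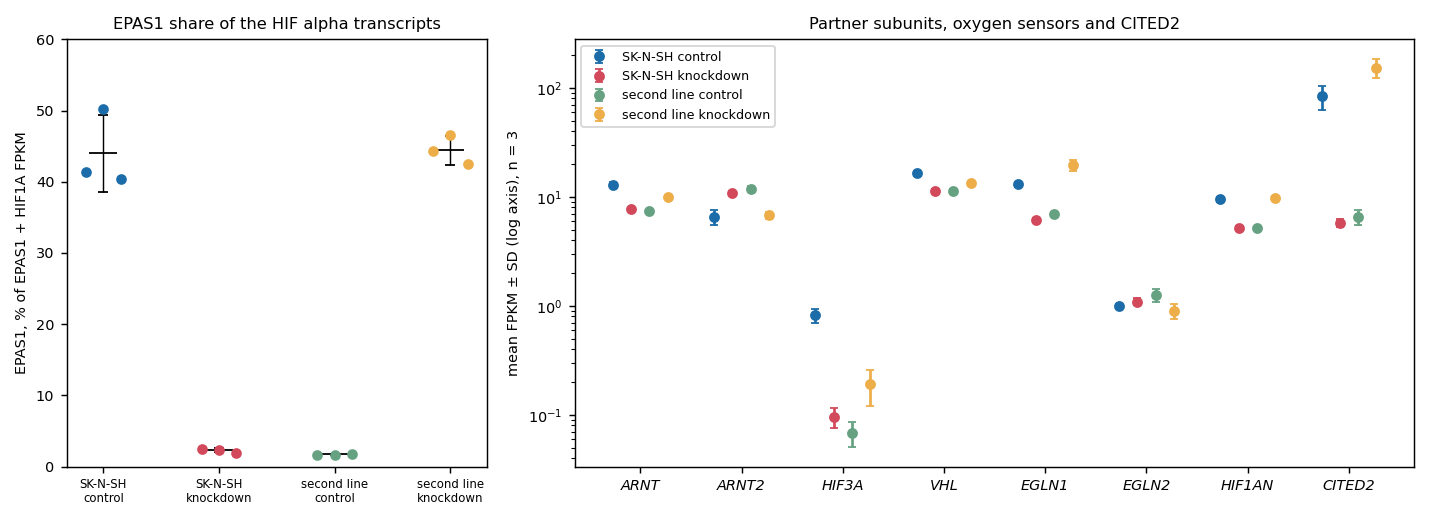
Left, the share of EPAS1 in the summed FPKM of EPAS1 and HIF1A (y axis, percent) for each library, with mean and SD by group (x axis); right, mean FPKM ± SD of 3 libraries (log y axis) for the other subunits, sensors and CITED2 (x axis). The share is near 44% in SK-N-SH control and second line knockdown and near 2% in the other groups, and CITED2 is the gene on the right that is most unlike between them.

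The other parts of the oxygen-sensing machinery were read in every group. The list was chosen with earlier results of these data known. Of its 8 genes other than the members 7 were tested; 5 were lower and 1 higher in SK-N-SH knockdown, and 5 were higher and 2 lower in second line knockdown, where 79.8% and 80.0% of all genes were called. CITED2, which competes with HIF alpha for the coactivators p300 and CBP, stood at 83.9 ± 20.6 and 154 ± 31.3 FPKM for SK-N-SH control and second line knockdown, against 6.53 ± 0.978 and 5.74 ± 0.477 in second line control and SK-N-SH knockdown. EGLN1, the main oxygen sensor PHD2, stood at 13.1 ± 0.669 FPKM for SK-N-SH control and 6.14 ± 0.202 in knockdown, and at 6.96 ± 0.263 in second line control and 19.5 ± 2.44 in knockdown. HIF1AN, the asparagine hydroxylase that blocks coactivator binding, was 1.82-fold lower in SK-N-SH knockdown and 1.91-fold higher in second line knockdown.

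Among the partner subunits, ARNT was 1.69-fold lower in SK-N-SH knockdown and 1.37-fold higher in second line knockdown, while its neural relative ARNT2 was 1.65-fold higher and 1.75-fold lower. VHL, the ubiquitin ligase subunit that recognises hydroxylated HIF alpha, was 1.44-fold lower and 1.18-fold higher, the latter no longer called with libraries rescaled to the same sum (adjusted p = 0.180). EGLN2 was lower in second line knockdown (0.897 ± 0.141 against 1.26 ± 0.170 FPKM, adjusted p = 0.0104) and stood at 1.09 ± 0.0797 against 0.987 ± 0.0474 in SK-N-SH (adjusted p = 0.403). HIF3A was too low to be tested, at 0.816 ± 0.114 FPKM for SK-N-SH control and at most 0.190 in the other groups.

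Of the secreted members, VEGFA (ENSG00000112715, chromosome 6, 43770184 to 43786487, plus strand), the main angiogenic growth factor and a textbook HIF target, passed in neither line. Its FPKM was 4.09, 6.59 and 5.89 in SK-N-SH control, 4.36, 4.89 and 3.94 in SK-N-SH knockdown, 3.73, 4.20 and 3.61 in second line control and 3.72, 5.31 and 5.05 in second line knockdown. Each group overlapped the next in order of mean. Within lines the log2 folds were -0.26 (SE 0.15, adjusted p = 0.129) and 0.22 (SE 0.15, adjusted p = 0.186). Single libraries decided this: without SK-N-SH control replicate 1, the lowest of its group, the SK-N-SH log2 fold was -0.43 with adjusted p = 0.00897, and without second line knockdown replicate 1 that of the second line was 0.35 with adjusted p = 0.0466. SK-N-SH control was 1.43-fold above second line control (adjusted p = 0.0237), a call lost without SK-N-SH control replicate 2 or 3 or second line control replicate 1 or 3, at adjusted p from 0.0600 to 0.103.

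ADM (ENSG00000148926, chromosome 11, 10304680 to 10307397, plus strand) encodes the vasodilator peptide adrenomedullin. It was read at 11.97, 11.6 and 10.7 FPKM in SK-N-SH knockdown and 13.1, 13.4 and 15.4 in second line control, against 4.86, 4.15 and 3.09 in SK-N-SH control and 3.23, 3.92 and 3.04 in second line knockdown. High and low groups did not overlap. ADM was 2.84-fold higher in SK-N-SH knockdown than in control (log2 fold 1.32, SE 0.12, adjusted p = 9.24e-07) and 4.12-fold lower in second line knockdown (log2 fold -1.77, SE 0.12, adjusted p = 6.38e-08), the opposite of EPAS1 in both.

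The receptor list, which holds subunits for VEGFA and for the calcitonin peptide family at large, also split by direction. RAMP1 and RAMP2, accessory subunits that with the receptor protein CALCRL form receptors of the calcitonin peptide family, sided with ADM: RAMP1 stood at 66.1 ± 7.47 and 66.4 ± 3.12 FPKM in the MYCN-high groups and at 13.5 ± 0.741 and 9.95 ± 1.32 in SK-N-SH control and second line knockdown. RAMP2 was 11.1-fold higher in SK-N-SH knockdown and 17.6-fold lower in second line knockdown. CALCRL itself was too low to be tested, between 0.230 and 0.460 FPKM by group, and RAMP3 had 0 reads in SK-N-SH control and second line knockdown and 16 and 10 reads in second line control and SK-N-SH knockdown. The VEGFA co-receptor NRP1 sided with EPAS1, 7.95-fold lower in SK-N-SH knockdown (3.73 ± 0.180 against 29.6 ± 2.95 FPKM) and 12.7-fold higher in second line knockdown (39.6 ± 2.02 against 3.13 ± 0.378). NRP2 was 1.27-fold higher and 1.35-fold lower. Of the receptor kinases, FLT1 was 7.38-fold lower and 4.11-fold higher, from a level of 1.73 ± 0.217 FPKM for SK-N-SH control, and KDR, the main signalling receptor of VEGFA, had at most 9 reads over any group.

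CA9 (ENSG00000107159, chromosome 9, 35673856 to 35681159, plus strand) encodes the membrane carbonic anhydrase that is widely used as a hypoxia marker. Its FPKM was 1.03, 1.24 and 1.60 in SK-N-SH control and 1.99, 1.03 and 0.668 in second line knockdown. In SK-N-SH knockdown it was 0.238, 0.172 and 0.382 and in second line control 0.315, 0.316 and 0.289, from 5 to 10 reads per library. The pairs of groups did not overlap, though second line knockdown spread widely. CA9 was 4.88-fold lower in SK-N-SH knockdown (log2 fold -0.85, SE 0.18, adjusted p = 0.000931) and 4.01-fold higher in second line knockdown (log2 fold 0.73, SE 0.18, adjusted p = 0.00272). With voom the log2 folds were -2.30 and 1.79. Its exons share 643 of 1670 bases with ARHGEF39 on the opposite strand, and the strand setting of the counting is not known here. ARHGEF39 went the other way, at 1.03 ± 0.204 and 1.10 ± 0.283 FPKM where CA9 was high and 2.78 ± 0.219 and 2.64 ± 0.252 where it was low. CA12, the other membrane carbonic anhydrase of the list, moved with CA9 and from more reads: 10.5 ± 1.83 against 1.22 ± 0.0746 FPKM for SK-N-SH control and knockdown, and 1.24 ± 0.152 against 14.4 ± 0.134 in second line control and knockdown.

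BNIP3 (ENSG00000176171, chromosome 10, 131966455 to 131982013, minus strand) encodes a mitochondrial protein that promotes mitophagy. It was read at 13.04, 13.1 and 11.3 FPKM for SK-N-SH control, 12.2, 12.95 and 13.5 in SK-N-SH knockdown, 12.1, 13.3 and 12.04 in second line control and 13.7, 15.3 and 16.2 in second line knockdown. The first 3 groups overlapped and second line knockdown lay above them all. It was 1.21-fold above its control (log2 fold 0.25, SE 0.07, adjusted p = 0.00784), a call lost when libraries were rescaled to the same sum (0.12, adjusted p = 0.0873). In SK-N-SH the log2 fold was 0.04 (SE 0.07, adjusted p = 0.609). Counting can divide reads between BNIP3 and its processed pseudogenes; the 39 listed pseudogenes together had at most 6.21% as many reads as BNIP3 in any library. Its relative BNIP3L was 1.34-fold lower in SK-N-SH knockdown and 1.17-fold higher in second line knockdown, the latter not called with rescaled libraries (adjusted p = 0.233).

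PDK1 (ENSG00000152256, chromosome 2, 172555373 to 172608669, plus strand) encodes a kinase that shuts off pyruvate dehydrogenase. Its FPKM was 0.743, 0.906 and 0.852 in SK-N-SH control, 1.58, 1.67 and 1.67 in SK-N-SH knockdown, 1.29, 1.25 and 1.29 in second line control and 1.04, 1.09 and 1.09 in second line knockdown. No 2 neighbours in this order overlapped, from SK-N-SH control up through second line knockdown and second line control to SK-N-SH knockdown. PDK1 was 1.97-fold higher in SK-N-SH knockdown (log2 fold 0.53, SE 0.06, adjusted p = 4.38e-06). The 1.19-fold lower level in second line knockdown (log2 fold -0.13, SE 0.06, adjusted p = 0.0480) is at the threshold: leaving out any 1 library other than SK-N-SH control replicate 1 ended the call, at adjusted p from 0.0510 to 0.105. Its family divided: PDK3 was 4.53-fold higher and 6.81-fold lower in the knockdowns of SK-N-SH and the second line, PDK2 1.93-fold lower and 1.56-fold higher, and PDK4 had 1 to 3 reads per group.

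NDRG1 (ENSG00000104419, chromosome 8, 133237171 to 133302022, minus strand) was named for its repression by N-myc and is also a hypoxia-induced gene. Its FPKM was 2.41, 2.07 and 2.34 in SK-N-SH control, 1.26, 1.32 and 1.02 in second line knockdown, 0.965, 0.793 and 0.756 in second line control and 0.751, 0.802 and 0.882 in SK-N-SH knockdown. SK-N-SH control stood above second line knockdown, that group stood above the others, and the MYCN-high groups overlapped. NDRG1 was 2.80-fold lower in SK-N-SH knockdown (log2 fold -0.85, SE 0.08, adjusted p = 8.23e-07) and 1.43-fold higher in second line knockdown (log2 fold 0.26, SE 0.08, adjusted p = 0.00867). Its paralogs NDRG2 and NDRG3 took the other side: NDRG2 was 4.13-fold higher and 3.65-fold lower, NDRG3 1.17-fold higher (adjusted p = 0.0291) and 1.29-fold lower, and NDRG4 was 2.72-fold lower in second line knockdown and stood at 11.5 ± 0.255 against 10.2 ± 2.04 FPKM in SK-N-SH knockdown and control (adjusted p = 0.160; 0.0384 without SK-N-SH control replicate 3). The NDRG3 call in SK-N-SH ended without SK-N-SH control replicate 1 (adjusted p = 0.123) or SK-N-SH knockdown replicate 1 (0.0791) or 2 (0.0596).

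ANKRD37 (ENSG00000186352, chromosome 4, 185396021 to 185400628, plus strand) encodes an ankyrin repeat protein and is a known HIF target. It was read at 0.998, 0.964 and 0.767 FPKM for SK-N-SH control, 1.41, 1.34 and 1.51 in SK-N-SH knockdown, 0.884, 1.63 and 1.40 in second line control and 0.731, 0.872 and 0.670 in second line knockdown, from 31 to 72 reads per library. Within each line the groups did not overlap. ANKRD37 was 1.56-fold higher in SK-N-SH knockdown (log2 fold 0.34, SE 0.11, adjusted p = 0.0153; adjusted p = 0.0593 without SK-N-SH control replicate 3) and 1.73-fold lower in second line knockdown (log2 fold -0.38, SE 0.11, adjusted p = 0.00855). Its exons share 909 of 2580 bases with UFSP2 on the opposite strand, and UFSP2 moved the same way: 4.81 ± 0.0623 and 7.26 ± 0.220 FPKM for SK-N-SH control and knockdown, and 7.26 ± 0.409 and 2.70 ± 0.241 in second line control and knockdown. The part of UFSP2 reads in the ANKRD37 values was not tested.

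**Figure D3:**
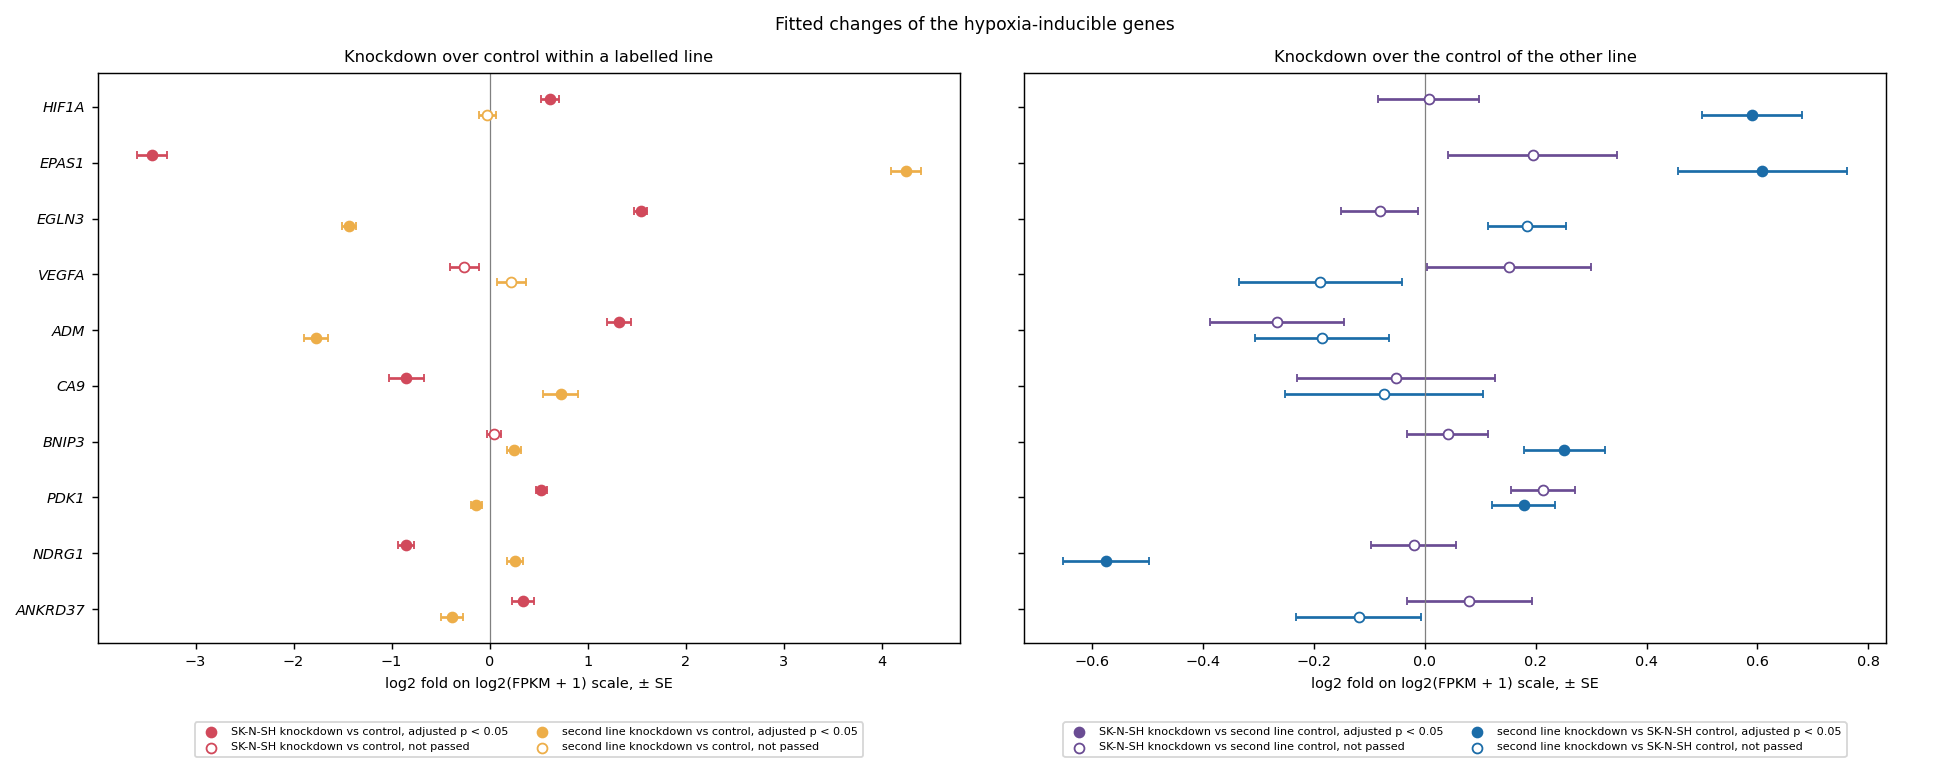
Fitted log2 fold with its SE (x axis, log2(FPKM + 1) scale) for each member (y axis); left, knockdown over control within each labelled line, right, knockdown over the control of the other line on a narrower axis. Filled points passed an adjusted p of 0.05; the folds for EPAS1 run from -3.44 to 4.25 on the left, and none of the SK-N-SH knockdown points on the right is filled.

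The next comparison asked whether the change under the knockdown label differed between lines. MYCN is high in SK-N-SH knockdown and in second line control, so the labelled changes of the lines run in opposite order of MYCN status. A difference between lines by label cannot be told apart from that order. In both lines 7 members passed, with opposite directions (EPAS1, CA9, ADM, EGLN3, NDRG1, ANKRD37 and PDK1), HIF1A passed in SK-N-SH, BNIP3 in the second line, and VEGFA in neither. Of all genes tested 69.3% passed in both lines with opposite directions, so 7 of 10 is near the background. By the interaction term 9 of 10 members differed, 4 more positive and 5 more negative in the second line, where 84.9% of all genes did (41.8% more positive and 43.1% more negative). EPAS1 had the largest difference among the members, 7.69 (SE 0.22, adjusted p = 1.34e-11) in log2 units as second line minus SK-N-SH, and ADM the most negative, -3.09 (SE 0.17, adjusted p = 6.02e-09). The member that did not pass was BNIP3, at 0.21 (SE 0.10, adjusted p = 0.0795). It passed with voom (0.25, adjusted p = 0.0350), without SK-N-SH control replicate 3 (0.27, adjusted p = 0.0246) and without second line knockdown replicate 1 (0.27, adjusted p = 0.0238).

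The last comparisons set each knockdown beside the control of the other line, the group with the same MYCN status; they share their libraries with the comparisons above. Between second line control and SK-N-SH knockdown 0 of 10 members passed in limma, beside 5.39% of all genes, 2.26% higher in SK-N-SH knockdown. By voom, the count-based form of limma, 1 member passed. In limma 2 members (ADM and PDK1) had an unadjusted p under 0.05, beside 2951 of the 15856 genes tested. PDK1 had the smallest p, at 1.29-fold higher in SK-N-SH knockdown (log2 fold 0.21, SE 0.06, adjusted p = 0.0574; adjusted p = 0.0110 by voom). ADM was 1.22-fold lower in SK-N-SH knockdown (log2 fold -0.27, SE 0.12, adjusted p = 0.268), and EPAS1 was at 0.926 ± 0.131 against 0.680 ± 0.0359 FPKM in second line control (adjusted p = 0.572). Libraries did not overlap for 3 members (ADM, PDK1 and EPAS1), beside 27.0% of all genes.

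In second line knockdown set against SK-N-SH control, 4 members were higher and 1 lower, with 44.1% of all genes called, 26.9% higher. Libraries did not overlap for 5 members, beside 51.0% of all genes. HIF1A was 1.54-fold higher in second line knockdown (log2 fold 0.59, SE 0.09, adjusted p = 0.000406) and EPAS1 1.55-fold higher (0.61, SE 0.15, adjusted p = 0.00748), though the EPAS1 libraries overlapped and the call ended at adjusted p = 0.0661 when these 2 groups alone were fitted. NDRG1 was 1.89-fold lower (-0.57, SE 0.08, adjusted p = 0.000170). PDK1 was 1.29-fold higher (0.18, SE 0.06, adjusted p = 0.0261) and BNIP3 1.21-fold higher (0.25, SE 0.07, adjusted p = 0.0163); both calls were lost when libraries were rescaled to the same sum, at adjusted p = 0.218 and 0.160. The PDK1 call also ended without SK-N-SH control replicate 1 or 3 or second line knockdown replicate 2 or 3 (adjusted p from 0.0534 to 0.0884), and that of BNIP3 without SK-N-SH control replicate 3 or second line knockdown replicate 3 (0.0694 and 0.0671). EGLN3 was 5.86-fold higher by mean FPKM (9.31-fold without SK-N-SH control replicate 2) but missed the threshold at log2 fold 0.18 (SE 0.07, adjusted p = 0.0530); with voom on whole reads it was 2.49 with adjusted p = 0.000327. VEGFA, CA9, ADM and ANKRD37 did not pass. Without SK-N-SH control replicate 1 VEGFA passed as lower (-0.36, adjusted p = 0.0415, beside -0.19 with all libraries), and without SK-N-SH control replicate 3 so did ADM (-0.33, adjusted p = 0.0276, beside -0.18).

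The wider HIF pathway was described with 8 lists ordered by role, holding 79 genes besides the members, of which 66 were tested. In SK-N-SH knockdown 23 were higher, 35 lower and 8 did not pass, with a median log2 fold of -0.41 beside 0.02 over all genes, of which 79.8% were called (40.7% higher, 39.0% lower). In second line knockdown 37 were higher, 25 lower and 4 did not pass, with a median of 0.29 beside -0.02 over all genes, of which 80.0% were called (39.9% higher, 40.2% lower). Each of the 8 lists held both higher and lower calls in both lines. Among the pathway genes named here, ANGPTL4, CXCR4, SLC16A3, FLT1, STC2, BHLHE41 and PDK3 had a mean under 0.5 FPKM in some groups. These genes passed the filter through the groups in which they are high.

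**Figure D4:**
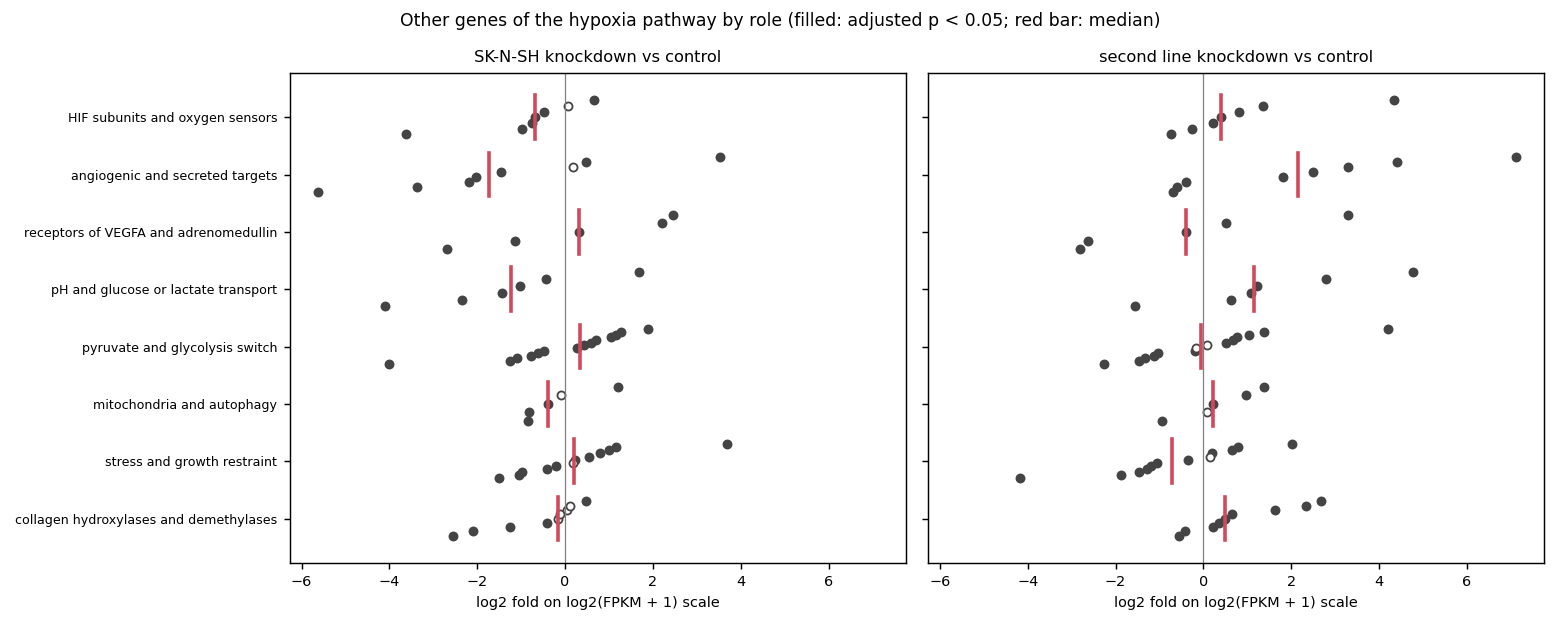
Log2 fold (x axis, log2(FPKM + 1) scale) of the 66 tested pathway genes outside the members, grouped by role (y axis), for SK-N-SH knockdown over control (left) and second line knockdown over control (right); filled points passed an adjusted p of 0.05 and the red bar is the list's median. Secreted targets and the transport list have medians of -1.74 and -1.22 on the left and 2.16 and 1.16 on the right, and the glycolysis list is spread around 0.

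Among the 8 tested secreted targets other than VEGFA and ADM, 5 were lower and 2 higher in SK-N-SH knockdown, and 5 higher and 3 lower in second line knockdown. Of all genes tested 79.8% were called in SK-N-SH (40.7% higher, 39.0% lower) and 80.0% in the second line (39.9% higher, 40.2% lower). LOXL2, a matrix cross-linking oxidase, was 11.9-fold lower in SK-N-SH knockdown and 26.2-fold higher in second line knockdown, and the lipase inhibitor gene ANGPTL4 43.4-fold lower and 84.0-fold higher. The ANGPTL4 folds rest on few reads in the low groups, 12 over SK-N-SH knockdown and 16 over second line control. Its high groups, through which it passed the filter, spread widely: 4.16 ± 1.70 FPKM for SK-N-SH control and 10.7 ± 4.17 in second line knockdown. STC2, which encodes the secreted glycoprotein stanniocalcin 2, sided with ADM in direction, 52.2-fold higher in SK-N-SH knockdown (13.3 ± 0.661 against 0.255 ± 0.169 FPKM) and 1.72-fold lower in second line knockdown (6.05 ± 0.929 against 10.4 ± 0.781).

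In the transport list the 6 genes other than CA9 passed in both lines, as 79.8% and 80.0% of all genes did in each. Of the 6, 5 were lower in SK-N-SH knockdown and higher in second line knockdown and 1 the reverse. Over all genes tested 69.3% passed in both lines with opposite directions. SLC16A3, the lactate exporter MCT4, was 52.4-fold lower in SK-N-SH knockdown (0.463 ± 0.0656 against 24.3 ± 2.89 FPKM) and 94.3-fold higher in second line knockdown (37.3 ± 4.15 against 0.396 ± 0.0700). SLC16A1, the related carrier MCT1, was the exception, 3.39-fold higher and 3.06-fold lower. In the list of collagen hydroxylases and demethylases 9 genes were tested. In SK-N-SH knockdown 1 was higher, 4 lower and 4 did not pass, beside 79.8% of all genes called. In second line knockdown 7 were higher and 2 lower, beside 80.0% of all genes called. The prolyl hydroxylase genes P4HA1 and P4HA2 were 4.62-fold and 12.4-fold lower in SK-N-SH knockdown and 5.59-fold and 14.1-fold higher in second line knockdown, and the lysyl hydroxylase gene PLOD1 was 2.43-fold lower and 3.21-fold higher. PLOD2, a further lysyl hydroxylase gene named after its values were seen, was too low to be tested, with 2 reads over SK-N-SH control and 24 over SK-N-SH knockdown, and 37 and 75 over the control and knockdown of the second line.

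Glycolytic and pyruvate genes other than PDK1 went both ways, 8 higher and 6 lower of 14 tested in SK-N-SH knockdown and 6 higher, 6 lower and 2 not passed in second line knockdown. Over all genes tested 79.8% and 80.0% were called in these comparisons. LDHA, the lactate dehydrogenase subunit whose pseudogenes can take some of its reads, was 18.1-fold lower and 20.9-fold higher, whereas the brain aldolase gene ALDOC was 4.84-fold higher and 6.88-fold lower. Of 5 tested mitochondrial genes, HIGD1A and FUNDC1 were 1.87-fold and 1.86-fold lower in SK-N-SH knockdown and 2.74-fold and 2.07-fold higher in second line knockdown, and the lipid droplet gene HILPDA, a HIF target, was 2.54-fold higher and 2.09-fold lower. In the stress list of 12 tested genes, 6 were higher and 5 lower in SK-N-SH knockdown, where 79.8% of all genes were called. In second line knockdown 4 were higher and 7 lower, where 80.0% of all genes were called. CXCR4, the chemokine receptor, had 0 reads in SK-N-SH control and second line knockdown and stood at 17.0 ± 0.909 and 11.97 ± 1.97 FPKM in second line control and SK-N-SH knockdown, at least 665-fold and at least 499-fold above a floor of 3 reads over the group. The transcriptional repressor gene BHLHE41 was 8.78-fold lower and 7.81-fold higher, and KLHL24 2.32-fold higher and 6.37-fold lower.

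The genes closest in pattern to the alpha subunits over the 12 libraries were found by Pearson's r of log2(FPKM + 1), a description over libraries that fall into separate groups. For HIF1A they were CHST3 (r = 0.976), RASSF2 (0.974) and CBFB (0.973), each lowest in SK-N-SH control, as HIF1A is; CHST3 stood at 4.77 FPKM there and at 9.78 to 10.3 in the other groups. For EPAS1 they were MAN1B1, PLBD2 and RHBDF2, with r of 0.999, 0.999 and 0.998, and PLBD2 stood at 20.5 and 27.2 FPKM where EPAS1 was high and at 4.58 and 4.44 where it was low.

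Within the groups, second line knockdown replicate 1 was the lowest of its group for 6 members (HIF1A, EPAS1, VEGFA, BNIP3, EGLN3 and PDK1) and the highest for CA9. SK-N-SH control replicate 1 and second line control replicate 3 were likewise lowest for 6 members each, and in SK-N-SH knockdown no library was lowest for more than 4. The groups with high EPAS1 also had the larger spread in it, with SDs of 4.70 and 6.16 FPKM.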

How the data were processed

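RNA sequencing of 12 libraries was analysed from 1 deposited table. The NEBNext Ultra kit was used on 3 µg of RNA per sample, per the labels. HISAT2 (2.0.5) and featureCounts (1.5.0-p3) are named, without settings, per the submitters' processing notes. The deposited values are FPKM per gene and library, normalized by the authors. A mouse build is listed in the processing notes and was not used, because the start and end of all 58735 genes equal those of GENCODE release 29 on GRCh38. Multiplied by length, 100% of values were whole numbers of reads (tolerance 0.05) once divided by 1 constant per library, giving 15425460 to 19249018 reads per library. Those constants scale with median-of-ratios size factors and not with library totals.

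Log2(FPKM + 1) was fitted with limma 3.58.1 in R 4.3.3, 4 group means in 1 model over 12 libraries with an intensity trend, for 15856 genes with a mean of at least 0.5 FPKM. P-values are two-sided, with Benjamini-Hochberg adjustment over all genes tested and a threshold of 0.05. The steps were also run on simulated data in which few genes changed, unlike these data, so that run cannot show the error rate here. Each fold without a log2 sign divides 1 group's mean FPKM by another's. Groups came from the sample titles, and 0 columns belonged to no sample. All 10 members are named in every comparison. Also named are all genes of the sensor and receptor lists, paralogs of members, up to 3 genes per role list and knockdown comparison with the largest fold past the threshold, and 3 genes most like HIF1A and EPAS1. A gene that this rule names in the list of secreted targets is not reported here. Members and lists were chosen with earlier results of these data known. Promoters come from RefSeq. Alternatives were another pseudocount, other filters, rescaled libraries, a fit of the compared groups alone, a replicate block, voom and leaving out each library.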

Additional observations from a re-analysis of the deposited data

Results flagged for a closer look

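For 9 of the 10 members the knockdown label went with a different change in the second line than in SK-N-SH, by limma's interaction term with an adjusted p under 0.05; 84.9% of all genes tested differed in the same way. Each value is the log2(FPKM + 1) change in the second line less that in SK-N-SH. EPAS1 had 7.69, CA9 1.58, NDRG1 1.11 and VEGFA 0.48. EGLN3 had -2.98, ADM -3.09, ANKRD37 -0.72, PDK1 -0.66 and HIF1A -0.64. The VEGFA difference is at the threshold, with adjusted p = 0.0499, and leaving out any 1 library other than SK-N-SH control replicate 1, SK-N-SH knockdown replicate 2 or second line knockdown replicate 1 ended the call (adjusted p from 0.05002 to 0.121). The levels of TSPYL5 and MYCN run with the same split of the groups, and the part of a mix-up of labels in these differences was not tested.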

How the results depend on the processing

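Of the member log2 folds recomputed under the alternatives, 1095 kept their direction and side of the threshold, 44 lost the call, 16 gained one and 15 changed sign; for the other named genes with a test within lines 1424 kept both, 7 lost the call and 1 gained one. The 7 are 5 for NDRG3 in SK-N-SH, 2 of them with no filter and with rescaling (adjusted p = 0.0541 and 0.0801), and BNIP3L and VHL in the second line with rescaling (0.233 and 0.180). With a minimum mean FPKM of 2, which leaves 5 members, 3 members passed in SK-N-SH, 3 in the second line, 4 in the difference between lines, 4 between controls and 3 between SK-N-SH control and second line knockdown. Rescaling libraries to the same sum gave 3 in the last of these, and moved its calls over all genes from 4261 higher and 2735 lower (60.9% higher) to 2559 and 3911 (39.6%). For SK-N-SH knockdown over second line control they moved from 359 and 495 (42.0%) to 245 and 509 (32.5%). Rescaling shifted the median of all genes in second line knockdown from -0.02 to -0.11. Between second line control and SK-N-SH knockdown 1 member passed when these groups alone were fitted, with voom, and with voom on median-of-ratios size factors, an alternative added after seeing the data. BNIP3 between controls changed sign at 0.00693 with rescaling and 0.03573 with voom, and HIF1A between second line control and SK-N-SH knockdown at -0.0169 with rescaling; the cause was not tested.

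Leaving out 1 library at a time gave 7 to 9 members in SK-N-SH, beside 12226 to 12723 of all genes. The second line gave 7 to 9 (12292 to 12703 of all genes) and the difference 8 to 10 (13258 to 13381). Between controls 7 to 8 passed (12185 to 12676), and in SK-N-SH knockdown over second line control 0 (474 to 991). In second line knockdown over SK-N-SH control 3 to 6 passed (5700 to 6944). Signs turned within -0.02062 to 0.08002 for BNIP3 in SK-N-SH, -0.1034 to 0.1107 for HIF1A in the second line and -0.03337 to 0.06218 for BNIP3 between controls. They also turned between second line control and SK-N-SH knockdown for HIF1A (-0.009753 to 0.02652), CA9 (-0.1173 to 0.001326), NDRG1 (-0.05154 to 0.02954) and ANKRD37 (-0.05857 to 0.1832), and for CA9 between SK-N-SH control and second line knockdown (-0.3077 to 0.1142). With the replicate number as a block, 8 members passed in SK-N-SH, 7 in the second line (PDK1 was lost), 9 in the difference, 8 between controls, 0 and 5. Same-numbered libraries of a line did not deviate together (r from -0.0751 to -0.0058). Whether the numbers pair samples cannot be told from this, since paired samples need not deviate together. The PDK1 call in the second line was also lost with no filter and when its groups alone were fitted (adjusted p = 0.0837 and 0.0802), and the VEGFA difference with a pseudocount of 0.1, no filter and rescaling (0.0542, 0.0934 and 0.104). Depth limits EGLN3, with 2 to 7 reads per library in SK-N-SH control, and CA9, with 5 to 10 in the MYCN-high groups.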
